A study of Homo sapiens with 42 samples.

Results

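Chromatin accessibility at interferon-stimulated genes and at regulators of antigen presentation was read in PC9, H1975, HCC2935 and HCC827 cells, 4 lung adenocarcinoma lines with EGFR mutations that make the receptor active. The members were 42 listed genes, and every region that the annotated table of a line assigned to one of these symbols was taken. H1975 contributed 122 regions, PC9 76, HCC2935 72 and HCC827 32, or 302 of 242490 annotated regions over the lines. Regions within 1 kb of a transcription start were kept apart as promoters (50, 36, 34 and 21). A region was found for 31 of the 42 genes. IFI27, IRF7, HLA-B, HLA-C, HLA-E, B2M, TAP1, TAP2, TAPBP, PSMB8 and PSMB9 had none under this rule and were not analysed here, so antigen presentation was represented by NLRC5, CIITA and CD274. All 302 regions passed the filter on low counts.

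Drug tolerant persister (DTP) cells had spent 24 days in 500 nM osimertinib, a covalent EGFR inhibitor. Combination (combo) cells had spent 21 days in osimertinib and were then treated for 3 days with 150 nM AZD5153, a small-molecule inhibitor. Control cells went through 21 drug-free days and 3 days of DMSO. PC9 and H1975 had a further group, in which the 3 days of AZD5153 followed 21 drug-free days. Each of the 14 groups had 3 libraries, which the labels call biological triplicates, all from 1 established line each. Whether osimertinib was still present during the AZD5153 days is not stated in the labels. In combo against DTP, an effect of AZD5153 and one of stopping osimertinib can therefore not be told apart. An AZD5153 effect in DTP cells or after osimertinib means this comparison throughout.

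Type I and type III interferons bind receptors whose JAK kinases phosphorylate STAT2, which joins IRF9 in a complex that binds the interferon-stimulated response element (ISRE). Interferon gamma acts through the GAS element and induces IRF1, CIITA and NLRC5, of which CIITA drives MHC class II genes and NLRC5 class I genes. The induced genes include sensors of viral RNA (IFIH1, DDX58), antiviral effectors (IFIT, OAS and MX families, RSAD2, ISG15) and CD274, which encodes the checkpoint ligand PD-L1. In epithelial tumours these genes are known to be kept at a low tonic level and to be raised by cytokines or by nucleic acids in the cytosol.

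The letters of the response elements were looked for in RefSeq promoter windows (GRCh38.p14, 250 bases before to 50 after a start, both strands), which were given for 33 of the 42 members. The ISRE core, GAAA and GAAA with any 2 bases between, was found in 22 of the 33 members (66.7%), against 4.38% of 27305 genes in the table. The GAS letters TTCNNNGAA were found in 13 (39.4%, against 9.38%) and the AP-1 letters TGANTCA in 3 (9.09%, against 9.37%). A match is a description of letters and not evidence of a bound factor. The windows below are those of members on which the results turn, 80 bases each on the gene's strand, with the matched letters in capitals, and TTTC in capitals is the ISRE core read on the other strand. IFIT1 lies at chr10:89392478-89392557 (+ strand), ISG15 at chr1:1013352-1013431 (+), RSAD2 at chr2:6877597-6877676 (+) and CD274 at chr9:5450302-5450381 (+), all 4 with an ISRE core.
IFIT1: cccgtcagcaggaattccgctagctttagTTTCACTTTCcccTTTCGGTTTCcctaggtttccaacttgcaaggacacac
ISG15: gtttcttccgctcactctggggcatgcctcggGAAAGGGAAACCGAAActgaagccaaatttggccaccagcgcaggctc
RSAD2: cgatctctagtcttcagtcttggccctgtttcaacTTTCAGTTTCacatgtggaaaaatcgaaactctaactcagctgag
CD274: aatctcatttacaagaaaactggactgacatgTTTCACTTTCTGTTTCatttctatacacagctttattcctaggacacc
OAS1 at chr12:112906758-112906837 (+) shows GAS letters, and MX1 at chr21:41425997-41426076 (+), the start nearest to its accessible region, shows AP-1 letters and no ISRE core.
OAS1: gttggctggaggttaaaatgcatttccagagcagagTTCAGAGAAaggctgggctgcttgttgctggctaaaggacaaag
MX1: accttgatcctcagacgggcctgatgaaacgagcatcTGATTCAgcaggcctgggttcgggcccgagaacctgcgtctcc
The ISRE core of MX1 was in windows of its other annotated starts. The IFIT1, ISG15, RSAD2, OAS1 and MX1 windows lay inside the promoter regions counted below wherever a line had one, whereas the CD274 window began before the counted region in PC9, H1975 and HCC827 and lay wholly inside it in HCC2935.

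Library totals over the regions of the tables were 3989287 to 5193390 counts in PC9, 6200672 to 10062505 in H1975, 1724680 to 4242868 in HCC827 and 3968690 to 8066287 in HCC2935. Of pairs of libraries from 1 group, 8 of 12 in PC9 and 5 of 12 in H1975 differed by no more than counting noise, so p-values in these lines rest on a very small spread that may be technical. Counts over all member regions and over the lead promoters of a comparison are therefore given also with the libraries of a group summed to 1 sample and the dispersion of HCC2935, a fit that was not run for the joint comparison of lines. HCC827 libraries differed most (1.21 to 8.76 times counting noise). All 6 epithelial markers had a promoter region in every line, and of 6 leukocyte markers only CD14 had one, in PC9 and H1975. In bulk cells, a smaller share of cells with an open region and a less open region in every cell cannot be told apart.

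For each gene and line, the promoter region with the highest counts served as its lead promoter, of which there were 29 in H1975, 26 in HCC2935, 25 in PC9 and 17 in HCC827. All lead promoters had the same width, so CPM values (counts scaled to library size with the trimmed mean of M values) can be compared between genes of a line. In PC9 control cells the members spanned the whole range of promoters. ISG20 (an exonuclease induced by interferon) was at the 98.3 percentile of all promoters and IRF1 at 95.6, while OAS2 was at 3.99 and IFI44 at 0.160. The median lead promoter, relative to the median of all promoters of the same library, was 0.942 ± 0.093 (SD, n = 3) in PC9 control, 1.27 ± 0.13 in DTP, 1.38 ± 0.060 in AZD5153 and 1.40 ± 0.085 in combo. H1975 gave 1.27 ± 0.025 in control and 1.44 ± 0.078 in DTP, then 0.842 ± 0.094 in AZD5153 and 1.68 ± 0.10 in combo. In HCC2935 it was 0.641 ± 0.045 in control, 0.962 ± 0.040 in DTP and 0.945 ± 0.032 in combo, and in HCC827 it was 0.826 ± 0.10, 0.776 ± 0.20 and 0.680 ± 0.026. H1975 with AZD5153 alone was thus the lowest group of its line, and control was the lowest in PC9 and HCC2935. The deposited peaks, counted where they covered at least 50% of a lead promoter in all 3 libraries, numbered 13 of 29 in H1975 control, 22 in DTP, 12 in AZD5153 and 21 in combo. In PC9 they numbered 7, 10, 8 and 12 of 25 in the same order. In control, DTP and combo they numbered 7, 7 and 10 of 26 in HCC2935 and 4, 3 and 3 of 17 in HCC827, with no gain in DTP under this rule. With any overlap they numbered 19, 26 and 26 in HCC2935 and 10, 15 and 9 in HCC827, so a gain depended on the rule. The share of all promoters with a peak was not computed, so these counts stand without one. All HCC2935 control libraries had lower totals than its DTP libraries.

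The comparison of DTP with control asks which member regions differ in cells that survive osimertinib. Regions named below as the largest rises or falls were chosen only among calls whose libraries did not overlap. Their separation is thus part of that choice and adds no support. Lead promoters of some antiviral effectors were more accessible in DTP cells of PC9, H1975 and HCC2935, while the sensors IFIH1 and DDX58, ISG15, IFIT2, IFIT3 and OASL were not called in any of these lines. In the OAS and MX families 4 of 6 were called higher in PC9, 4 of 6 in H1975 and 3 of 4 in HCC2935, and in the group of nuclear body and PARP genes 3 of 4, 2 of 3 and 1 of 4. Over all promoters 15.3%, 26.7% and 20.5% were called higher in these lines. With summed libraries the called rises numbered 1, 3 and 3 in the OAS and MX families and 1, 2 and 1 in the nuclear body and PARP group. Of 30 genes with a lead promoter in these 3 lines, 20 were called higher in at least 1 line, 8 in 2 lines (CIITA, IFIT1, MX2, NLRC5, OAS2, RSAD2, SP100 and SP110) and 3 in all 3 lines. Those 3 were MX1, OAS1 and TRIM22, an antiviral GTPase, an activator of RNA decay and a ubiquitin ligase. Lower calls in any line were made at 5 genes (BST2, CD274, IFI35, IRF9 and ISG20), of which IFI35 was called higher in another. The share of all promoters called in 1 or more of the lines was not computed, so these counts over lines stand without one. Shares called lower in each line follow below.

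The MX1 lead promoter (chr21:41425933-41426434 in PC9) had 5.34, 4.67 and 2.98 CPM in PC9 control and 7.01, 6.41 and 5.82 in DTP. In H1975 it had 4.56, 5.17 and 4.46 in control and 8.92, 7.20 and 8.99 in DTP, and in HCC2935 2.59, 0.499 and 1.84 in control and 6.96, 7.04 and 9.22 in DTP. The groups did not overlap in any of the 3 lines. MX1 rose by 0.59 ± 0.23 on the log2 scale (± SE, adjusted p = 0.0381) in PC9, 0.82 ± 0.16 (4.97e-06) in H1975 and 2.14 ± 0.32 (6.41e-07) in HCC2935 by edgeR's quasi-likelihood test. With summed libraries the PC9 call was lost (adjusted p = 0.193). The OAS1 lead promoter (chr12:112906602-112907103 in PC9) went from 8.14, 5.88 and 9.53 CPM to 13.2, 12 and 12.9 in PC9 and from 4.07, 4.24 and 3.16 to 7.12, 8.56 and 6.95 in HCC2935. There the groups were separate, with log2 changes of 0.69 ± 0.17 (adjusted p = 0.000369) and 0.97 ± 0.25 (0.00206), the former lost with summed libraries (0.0540). In H1975 OAS1 went from 6.50, 8.05 and 7.59 to 8.35, 12.1 and 7.99, where 1 DTP library lay below the highest control, and the change of 0.36 ± 0.14 (adjusted p = 0.0295) was lost with summed libraries (0.288). TRIM22 (chr11:5689417-5689918 in PC9) had 1.27, 1.83 and 2.18 CPM in PC9 control against 4.48, 3.10 and 4.02 in DTP, a rise of 1.10 ± 0.33 (adjusted p = 0.00446). HCC2935 gave 1.67, 1.25 and 0.526 in control against 6.96, 11.0 and 12 in DTP, a rise of 3.03 ± 0.33 (5.19e-10). H1975 held 0.138, 0.120 and 0.361 CPM in control, 1 to 3 counts per library, so no fold is given, against 5.6, 6.08 and 6.09 in DTP. TRIM22 was therefore near closed in untreated H1975 and clearly detected in all its DTP libraries. HCC2935 control was low as well, at the 1.11 percentile of all promoters for TRIM22 and 2.26 for MX1. The size of the HCC2935 folds at these 2 genes is therefore uncertain.

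**Figure D1:**
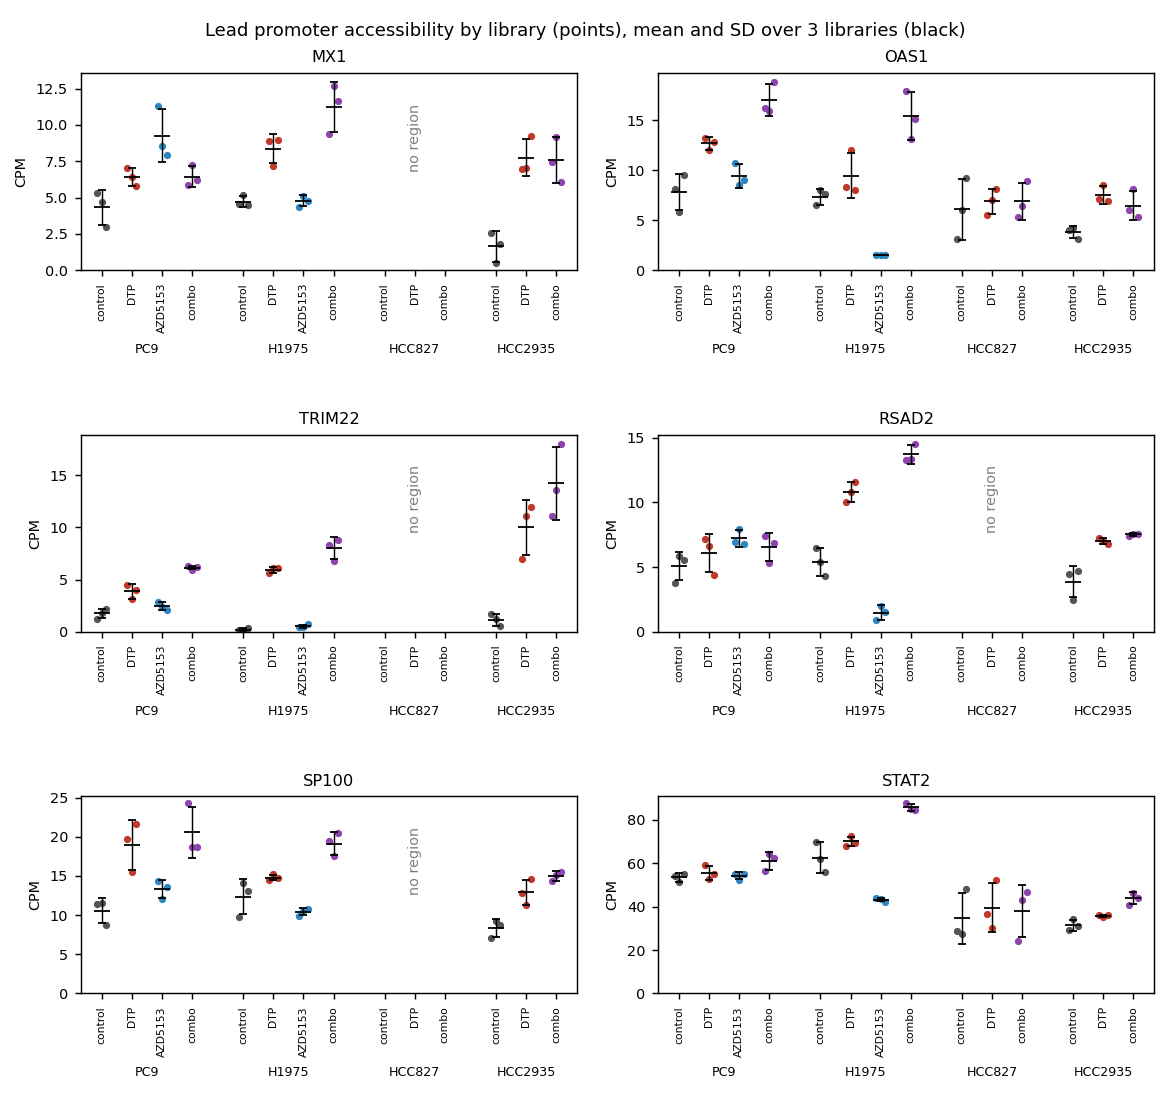
CPM (vertical axis) at the lead promoters of MX1, OAS1, TRIM22, RSAD2, SP100 and STAT2 in every library (points) of the 14 groups, with the mean and SD over 3 libraries in black. OAS1 in H1975 fell from 6.50 to 8.05 CPM in control to between 1.5 and 1.56 with AZD5153 alone, whereas its combo libraries reached 13.1 to 17.9, and no lead promoter region of MX1, TRIM22, RSAD2 or SP100 was found in HCC827.

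In PC9, 34 of 76 member regions were called between DTP and control (20 higher, 14 lower), against 31.8% of all regions and 38.1% of annotated regions, the kind from which members come. At promoters 13 of 36 were called higher, against 15.3% of all promoters, and 5 lower, against 10.8%. Outside promoters 16 of 40 were called, 7 higher and 9 lower, against 46.8% of such regions. The median log2 change of the 25 lead promoters was 0.23, against 0.06 over all promoters. With summed libraries 17 regions were called, against 19.5% of all regions, and 6 lead promoters (OAS2, IFI44, CIITA, TRIM22, SP100 and IFI35). OAS2, another oligoadenylate synthetase, showed the largest rise among the lead promoters, from 2.03, 2.43 and 1.79 CPM to 8.56, 8.07 and 6.43 (1.87 ± 0.27, adjusted p = 1.78e-10). CIITA (chr16:10878682-10879183) rose from 4.32, 3.25 and 4.17 to 12.7, 9.10 and 9.64 (1.43 ± 0.21, 1e-09). Both were separate in all libraries, as their choice required. SP100, a nuclear body protein, rose by 0.85 ± 0.14 (8.2e-08), from 11.4, 11.6 and 8.73 to 19.7, 15.5 and 21.7 CPM. PARP9 (0.76 ± 0.25), OAS3 (0.70 ± 0.18), DDX60 (0.56 ± 0.17) and SP110 (0.55 ± 0.15) were also called higher, as was IFI44, for which no fold is given because its control libraries held 2 to 5 counts.

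Members called lower in PC9 were IFI35, IRF9 and ISG20. The lead region of IFI35, a regulator of RIG-I signalling, fell from 6.61, 7.51 and 5.75 CPM to 1.95, 2.48 and 1.61 (-1.71 ± 0.28, adjusted p = 2.71e-08). It lay at chr17:43010670-43011171, at -890 bases from an alternative start, and the region at the main start (chr17:43006474-43006975) held 9.92, 6.69 and 11.3 CPM in control and 6.62, 6.83 and 7.83 in DTP. IRF9, the DNA-binding subunit of the ISRE complex, had 12.5, 11.4 and 11.9 in control and 8.76, 8.90 and 7.63 in DTP (-0.49 ± 0.17, 0.0151). ISG20 changed by -0.25 ± 0.08 (0.00907). The IRF9 and ISG20 calls were lost with summed libraries (adjusted p = 0.186 and 0.457). STAT2 stayed between 51.3 and 59.2 CPM in the 6 libraries (log2 change 0.06) and was not called.

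H1975 had 85 of 122 regions called (42 higher, 43 lower), against 51.8% of all regions and 62.6% of annotated regions, and 64 with summed libraries, against 40.3%. With scaling by library size alone, which moved the median of all regions by 0.17 on the log2 scale, the split was 53 higher and 33 lower. At promoters 19 of 50 were called higher, against 26.7% of all promoters, and 10 lower, against 23.2%. Outside promoters 23 of 72 were called higher, against 25.2%, and 33 lower, against 44.9%. Among lead promoters 12 of 29 were called higher and 4 lower, with a median of 0.18 against 0.05, and 8 were called with summed libraries. RSAD2, which encodes the antiviral enzyme viperin, rose from 6.50, 5.41 and 4.34 CPM to 10.1, 10.8 and 11.6, a log2 change of 1.01 ± 0.15 (adjusted p = 6.29e-10). OAS2 went from 6.36, 7.81 and 6.87 to 14.1, 10.7 and 13.5 (0.85 ± 0.14, 1.21e-08). Neither gene's groups overlapped, as their choice required. MX2 (0.78 ± 0.13), PARP14 (0.68 ± 0.16), SP110 (0.63 ± 0.11), NLRC5 (0.57 ± 0.10) and IFIT1 (0.47 ± 0.13) rose as well, with IFIT1 lost with summed libraries (0.127). CIITA rose by 0.39 ± 0.13 and STAT2 by 0.17 ± 0.06, both with overlapping libraries and both lost with summed libraries. Lower calls were BST2 (tetherin, -0.66 ± 0.24), IRF9 (-0.34 ± 0.11), CD274 (-0.26 ± 0.10) and ISG20 (-0.21 ± 0.08), and none of the 4 was called with summed libraries. With bin medians removed CD274 was at -0.05. The BST2 lead lay 743 bases inside an annotated start and did not overlap the RefSeq promoter window of BST2. The H1975 leads of IFIH1 and IFIT3 did not overlap theirs either.

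In HCC2935, 34 of 72 regions were called (16 higher, 18 lower), against 37.4% of all regions and 45.1% of annotated regions, and 28 with summed libraries, against 32.8%. Scaling by library size alone, which moved the median of all regions by 0.10, gave 21 higher and 15 lower. Promoters were called higher in 12 of 34 cases, against 20.5% of all promoters, and lower in 3, against 12.4%. Outside promoters only 4 of 38 were called higher, against 25.0%, and 15 lower, against 26.9%. All 11 called lead promoters of the 26 were higher (median 0.38, against 0.12), 8 of them with summed libraries. Beside MX1, TRIM22 and OAS1 these were RSAD2 (0.84 ± 0.25), IFIT1 (0.76 ± 0.24), MX2 (0.70 ± 0.23), IFI35 (0.67 ± 0.20), SP100 (0.64 ± 0.19), IRF1 (0.41 ± 0.12), NLRC5 (0.40 ± 0.16) and IFI6 (0.38 ± 0.14). RSAD2 held 4.44, 2.5 and 4.74 CPM in control and 7.27, 7.04 and 6.79 in DTP, and IFIT1, a sensor of foreign RNA caps, held 4.81, 4.99 and 4.47 against 8.70, 9.53 and 5.82. Libraries of the 2 groups were separate at all 11, but the share of all called promoters with separate libraries was not computed. The median of the 10 Mb bin around IRF1 moved by 0.22, and with bin medians removed its change was 0.19 and no longer called (adjusted p = 0.255), as was that of IFI6 (0.27, 0.145). IRF1, IFI6 and NLRC5 were also lost with summed libraries (0.128, 0.181 and 0.175), and NLRC5 with the replicate block (0.0550).

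**Figure D2:**
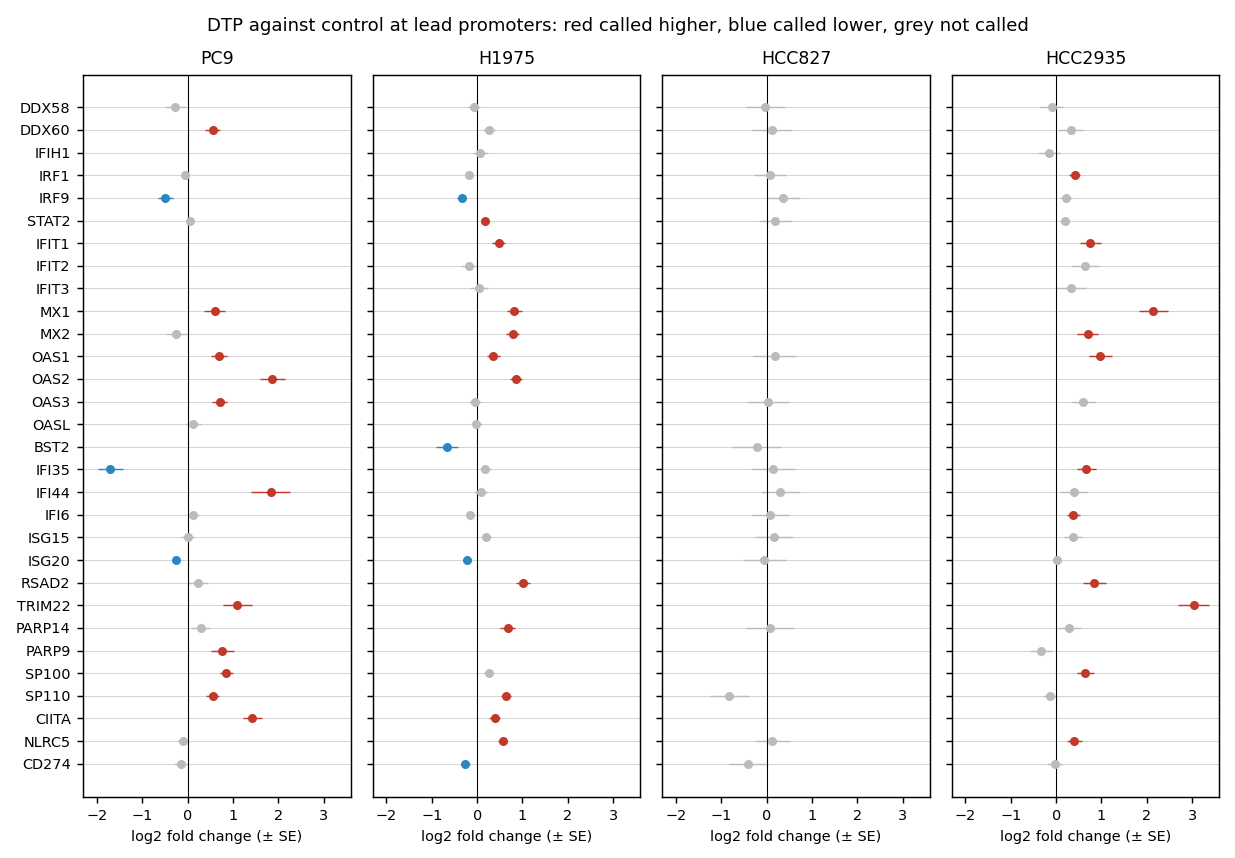
Log2 fold change of DTP against control (horizontal axis, ± SE from edgeR) at the lead promoter of each gene in the 4 lines, with red for called higher, blue for called lower and grey for not called. TRIM22 and MX1 stood farthest to the right in HCC2935 (3.03 and 2.14), no promoter was called in HCC827, and TRIM22 in H1975 was left out because its control libraries held 1 to 3 counts.

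Whether these effects differed between lines was tested in a joint fit over regions matched in PC9, H1975 and HCC2935, which held 43 member regions of 24 genes, 19 of them lead promoters. The DTP effect differed between H1975 and PC9 at 13 of 43 (7 higher in H1975, 6 lower), against 25.3% of matched regions, between HCC2935 and PC9 at 8 (5 and 3), against 19.5%, and between HCC2935 and H1975 at 11 (7 and 4), against 30.9%. With library size alone the HCC2935 and PC9 split was 10 and 1, and with bin medians removed that of HCC2935 and H1975 was 5 and 6. MX1 rose more in HCC2935 than in PC9 (difference 1.45 ± 0.40, adjusted p = 0.00504) and than in H1975 (1.23 ± 0.36, 0.00459). TRIM22 rose more in HCC2935 than in PC9 (1.84 ± 0.52, 0.00563). Both MX1 and TRIM22 had few counts in HCC2935 control, so the size of these differences is uncertain. The change of SP110 was lower in HCC2935, where 21.7, 19.5 and 19.99 CPM in control stood against 16.4, 21.4 and 17.8 in DTP and no call was made, than in H1975 (-0.85 ± 0.17) and PC9 (-0.77 ± 0.20), where it rose. H1975 had the larger effect than PC9 at MX2 (1.02 ± 0.28), RSAD2 (0.78 ± 0.29) and NLRC5 (0.67 ± 0.17), and the smaller one at OAS3 (-0.75 ± 0.23) and SP100 (-0.60 ± 0.20). No difference was called for OAS1 between any of the 3 lines.

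HCC827 gave no call at any of its 32 member regions between DTP and control, with 2 at an unadjusted p under 0.05 and 1 by DESeq2, where 0.0267% of all regions were called by edgeR. In these libraries replicate 3 stood apart from replicates 1 and 2, which were not clearly paired by number. With the replicate number as a block 2 regions were called, against 3.59% of all regions, and with summed libraries also 2, against 12.5%. These were a distal region of IFI44 (chr1:78691937-78692438), with 8.78, 14 and 9.74 CPM in control and 1.85, 2.18 and 1.35 in DTP, the latter 4 to 6 counts (blocked adjusted p = 0.00109 by edgeR, no fold given), and the region upstream of CD274 described below. None of the 17 lead promoters was called. Their libraries spread widely, as at OAS1, where control held 3.13, 5.99 and 9.21 CPM and DTP 5.54, 7.08 and 8.09. Between combo and DTP there was no call by edgeR, none at an unadjusted p under 0.05 and none by DESeq2, and no region of the line was called (0%).

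AZD5153 was compared with DMSO in untreated cells and, in the combo, with continued osimertinib in DTP cells. In H1975 these comparisons went opposite ways at many of the members. AZD5153 alone lowered the lead promoters of the OAS family, MX2, RSAD2, IFI44 and the RNA sensors, and raised 1, that of BST2. In combo against DTP 19 of 29 lead promoters were called higher and none lower, against 28.0% and 6.48% of all promoters. With summed libraries 3 were called. The cell type markers moved the same way. With AZD5153 alone all 6 epithelial marker leads were called lower (median -1.36), as were 10 of all 11 marker leads, in combo against DTP 4 of 11 were called higher and none lower, and the difference of the effects was called higher at 10 of 11 (median 1.33). Their part in the result was not tested.

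With AZD5153 alone, 80 of 122 H1975 regions were called (17 higher, 63 lower), against 58.1% of all regions and 72.2% of annotated regions, and 70 with summed libraries, against 48.3%. At promoters 24 of 50 were called lower, against 24.4% of all promoters, and 5 higher, against 43.8%, so that the members moved against the direction of most called promoters. The median of the 29 lead promoters was -0.36, against 0.20 for all promoters, and 13 leads were called with summed libraries. OAS1 held 6.50, 8.05 and 7.59 CPM in control and 1.5, 1.56 and 1.53 with AZD5153, a log2 change of -2.27 ± 0.23 (adjusted p = 1.92e-18). RSAD2 went from 6.50, 5.41 and 4.34 to 0.923, 2.02 and 1.53 (-1.88 ± 0.25, 4.68e-12), and IFI44 from 6.64, 8.17 and 6.14 to 1.61, 1.56 and 2.14 (-1.95 ± 0.22, 1.3e-15). The 2 groups did not overlap at these 3 genes, as their choice required. By role, 5 of 6 OAS and MX leads, 2 of 3 sensors, 2 of 3 IFIT genes and 2 of 3 transcription factors were called lower, while MX1, SP100, SP110, PARP14 and NLRC5 were not called. OASL changed by -1.61 ± 0.17, MX2 by -1.5 ± 0.20, OAS2 by -1.09 ± 0.19, IFIT2 by -0.80 ± 0.21, IFI6 by -0.67 ± 0.09 and STAT2 by -0.53 ± 0.07.

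Some of these genes lay in stretches whose regions shifted together under AZD5153 alone. With the median of each 10 Mb bin removed, 13 lead promoters were called, 11 lower and 2 higher. OAS1 (-2.11), RSAD2 (-1.74), OASL (-1.70), MX2 (-1.68) and IFI44 (-1.67) moved little. IFIH1 went from -1.39 to -0.69 (bin median -0.81) and DDX58 from -1.24 to -0.73 (bin median -0.58), both still called. CD274 turned from -0.74 ± 0.11 to 0.41 (adjusted p = 0.00162), since its bin had a median of -1.39. BST2 fell back from 1.41 ± 0.18 to 0.42 (bin median 1.10). IFIT1, CIITA, OAS3 and IRF9 were no longer called.

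In H1975 combo cells 59 of 122 regions differed from DTP (49 higher, 10 lower), against 21.0% of all regions and 32.6% of annotated regions. Scaling by library size alone gave 35 higher and 14 lower. All 27 called promoters of the 50 were higher, against 28.0% of all promoters higher and 6.48% lower, and the median of the lead promoters was 0.33, against 0.16. Most of these changes were small, and with summed libraries 15 regions, against 6.05% of all regions, and 3 lead promoters (IFIT2, IFIT3 and OAS1) were called. IFIT2, which promotes the decay of some viral RNA, held 5.03, 3.75 and 4.59 CPM in DTP and 9.96, 8.13 and 9.73 in combo (1.06 ± 0.15, adjusted p = 5.38e-09). IFIT3 held 3.43, 4.66 and 4.39 against 7.03, 6.35 and 8.33 (0.79 ± 0.17, 7.18e-05), and OAS1 8.35, 12.1 and 7.99 against 17.9, 13.1 and 15.1 (0.69 ± 0.12, 6.91e-07). Libraries of the groups were separate at all 3, as their choice required. Smaller rises were called at PARP14 (0.59 ± 0.13), OAS3 (0.50 ± 0.12), DDX60 (0.49 ± 0.11), OAS2 (0.46 ± 0.11), MX1 (0.43 ± 0.13), IRF1 (0.40 ± 0.07), IFI35 (0.39 ± 0.10), SP100 (0.37 ± 0.10), RSAD2 (0.34 ± 0.11), STAT2 (0.29 ± 0.06) and ISG15 (0.28 ± 0.09).

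The difference between the 2 AZD5153 effects in H1975, the effect after osimertinib minus the effect without it, was called at 83 of 122 regions (71 higher, 12 lower), against 42.5% of all regions and 59.8% of annotated regions, and at 61 with summed libraries, against 31.0%. At lead promoters it was called higher at 23 of 29 and lower at BST2, with a median of 0.70 against -0.05 for all promoters, and at 14 with summed libraries. The share of all promoters called for this difference is not given, so the lead counts stand without it. Of 32 pathway genes outside the list, 14 were called higher and 6 lower, and 13 and 6 with bin medians removed. OAS1 had the largest difference (2.96 ± 0.26, adjusted p = 6.05e-23), followed by RSAD2 (2.22 ± 0.27), IFI44 (2.18 ± 0.26), IFIT2 (1.86 ± 0.26), IFIH1 (1.72 ± 0.26) and OAS2 (1.55 ± 0.22). STAT2 gave 0.82 ± 0.09 (4.96e-16), from 69.8, 61.7 and 55.8 CPM in control and 43.9, 43.2 and 42.3 with AZD5153 against 68.0, 72.5 and 69.4 in DTP and 87.5, 84.9 and 84.6 in combo. With bin medians removed, 19 lead promoters were called higher and none lower, that of BST2 was -0.14 (adjusted p = 0.767) and that of CD274 turned from 1.02 to -0.13 (0.542).

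**Figure D3:**
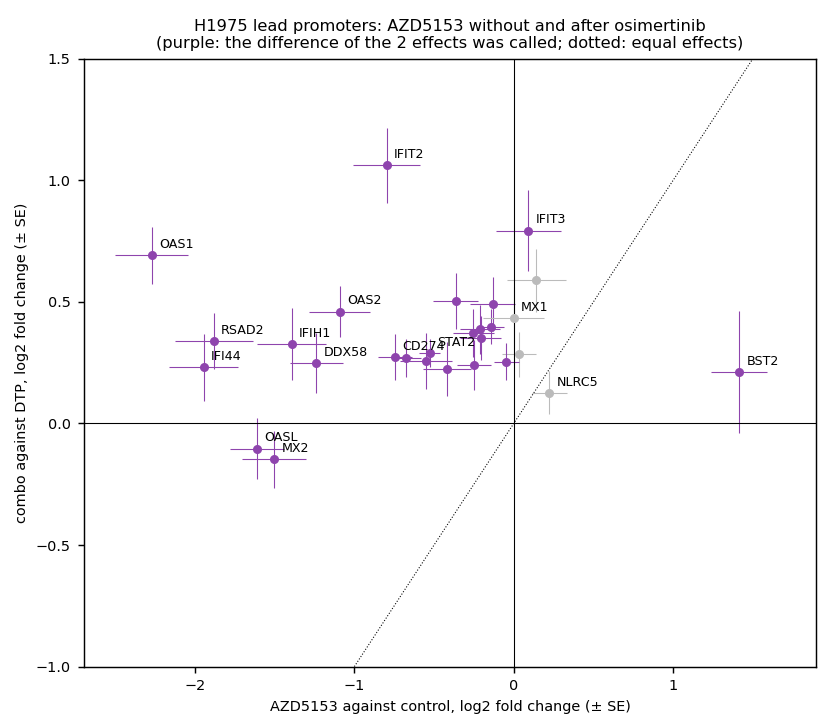
Log2 fold change of AZD5153 against control (horizontal axis) and of combo against DTP (vertical axis), each ± SE from edgeR, at the lead promoters of H1975 without TRIM22. Purple marks genes whose 2 effects were called different, and the dotted line marks equal effects. OAS1 lies at -2.27 and 0.69, RSAD2 at -1.88 and 0.34, and BST2 is the one purple point below the line (1.41 and 0.21). The BST2 region lies outside the RefSeq promoter window of that gene.

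In PC9, AZD5153 alone was called at 25 of 76 regions (17 higher, 8 lower), against 25.8% of all regions and 32.4% of annotated regions, a share close to that of the members, and at 14 with summed libraries, against 14.1%. At promoters 7 were called higher, against 10.4% of all promoters, and 4 lower, against 12.2%, and outside promoters 14 of 40 were called, against 39.6%. Of 25 lead promoters 7 were called higher and 1 lower, and 6 were called with summed libraries. The OAS2 libraries went from 2.03, 2.43 and 1.79 CPM to 5.38, 4.64 and 5.27 (1.28 ± 0.29, adjusted p = 0.000152) and MX1 from 5.34, 4.67 and 2.98 to 11.3, 8.54 and 7.90 (1.12 ± 0.21, 3.05e-06). Neither gene's libraries overlapped, as their choice required. IFI44, again with no fold, IFI35 (1.07 ± 0.17), CIITA (0.92 ± 0.23), OAS3 (0.77 ± 0.17) and PARP14 (0.56 ± 0.20) were higher too. OAS1 at 10.8, 8.54 and 9.03 CPM and RSAD2 at 6.92, 7.98 and 6.77 were not called. Whether the AZD5153 effect itself differed between PC9 and H1975 was not tested.

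Combo against DTP in PC9 was called at 27 of 76 regions (22 higher, 5 lower), against 22.4% of all regions and 29.3% of annotated regions, but at 8 with summed libraries, against 8.15%, and at 16, 17 and 18 without combo replicate 1, combo replicate 3 or DTP replicate 2. At promoters 9 were called higher, against 17.4% of all promoters, and 2 lower, against 9.39%. The IFI35 region before the alternative start rose from 1.95, 2.48 and 1.61 CPM to 11.0, 13 and 11.1 (2.53 ± 0.24, adjusted p = 1.62e-21), and no combo library came near a DTP library. TRIM22 (0.66 ± 0.24), DDX58 (0.62 ± 0.21), IRF9 (0.54 ± 0.17), CD274 (0.53 ± 0.14), OAS1 (0.42 ± 0.14), OAS3 (0.39 ± 0.14), IFI6 (0.35 ± 0.11) and IRF1 (0.30 ± 0.09) were called higher and SP110 lower (-0.42 ± 0.14), none of them with summed libraries. The difference between the 2 AZD5153 effects was called at 17 of 76 regions (6 higher, 11 lower), against 7.32% of all regions higher and 6.46% lower (13.8% in all, and 18.9% of annotated regions, 8.1% of them lower), at 4 with summed libraries, against 4.84%, and with library size alone at 3 higher and 12 lower. At promoters 4 of 36 were called higher, against 9.16% of all promoters, and 5 lower, against 4.51%, with 2 promoters and 1 lead called with summed libraries. OAS2 (-1.37 ± 0.35), MX1 (-1.12 ± 0.30) and SP110 (-0.68 ± 0.21) had a lower AZD5153 effect after osimertinib than without it, since OAS2 and MX1 rose with AZD5153 alone and were not called in combo against DTP, and SP110 was not called with AZD5153 alone and fell in combo. IFI35 had a higher effect (1.45 ± 0.32). In HCC2935, 8 of 72 regions differed between combo and DTP (3 higher, 5 lower), against 8.39% of all regions and 13.2% of annotated regions, and 5 with summed libraries, against 5.57%. Leaving out DTP replicate 1, DTP replicate 2 or combo replicate 2 also gave 5. The lead promoters called were DDX60, a helicase, with 3.64, 4.56 and 4.85 CPM in DTP and 9.01, 9.20 and 8.28 in combo (1.02 ± 0.21, adjusted p = 0.00114), and PARP9, with 6.17, 5.38 and 5.66 against 8.38, 11.0 and 10.5 (0.81 ± 0.21, 0.00992). Both were separate in all libraries, as their choice required, and with summed libraries only DDX60 was called. The HCC2935 lead of DDX60 did not overlap the RefSeq promoter window of that gene.

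Outside promoters, CD274 had 1 region 3.6 to 3.7 kb before its start in every line. In H1975 (chr9:5446334-5446835) it held 18.7, 19.95 and 18.3 CPM in control, 1.37, 1.01 and 0.599 in DTP, 0.923, 0.778 and 1.43 with AZD5153 and 0.703, 0.446 and 1.00 in combo. All control libraries lay far above those of the other groups, with a log2 change of -4.26 ± 0.19 (adjusted p = 5.91e-58) in DTP and -4.11 ± 0.19 (1.7e-54) with AZD5153. The start of CD274 (chr9:5450310-5450811) held 19.2, 21.8 and 20.8 CPM in control, 16.0, 17.5 and 18.1 in DTP, 13.4, 12 and 11.6 with AZD5153 and 19.3, 18.9 and 24.0 in combo. It too was called lower in DTP (-0.26) and with AZD5153 (-0.74), by smaller changes. With bin medians removed, however, the start was at -0.05 and not called in DTP, and turned to a called rise with AZD5153. The upstream changes above are given without that removal. In HCC827 the upstream region held 10.7, 10.8 and 17.1 in control, 2.77, 2.18 and 4.27 in DTP and 2.65, 1.18 and 1.35 in combo, and the DTP change was called with the replicate block (-2.02, 0.00326) but not without it (-2.0 ± 0.47, 0.166). HCC2935 gave 14.8, 11.5 and 12.6, then 10.1, 9.53 and 9.87 in DTP, which was not called (-0.41), and 6.64, 5.64 and 4.83 in combo, which was lower than DTP (-0.78 ± 0.19, 0.00661). PC9 held 6.36, 5.27 and 7.14 in control and 5.45, 7.04 and 4.62 in DTP, which overlapped, and 4.23, 3.53 and 3.39 with AZD5153 (-0.75 ± 0.24, 0.0101). The DTP effect at this region differed between H1975 and PC9 by -4.12 ± 0.33 (adjusted p = 1.81e-20) and between HCC2935 and H1975 by 3.75 ± 0.28 (2.81e-23). A second CD274 promoter region (chr9:5455143-5455644 in H1975), at -470 bases from another annotated start, fell in H1975 from 12.7, 9.49 and 10.5 to 2.63, 3.75 and 2.40 (-1.88 ± 0.17) and in HCC2935 from 6.48, 8.74 and 10.3 to 3.32, 4.00 and 4.04 (-1.13 ± 0.25, 0.000353).

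**Figure D4:**
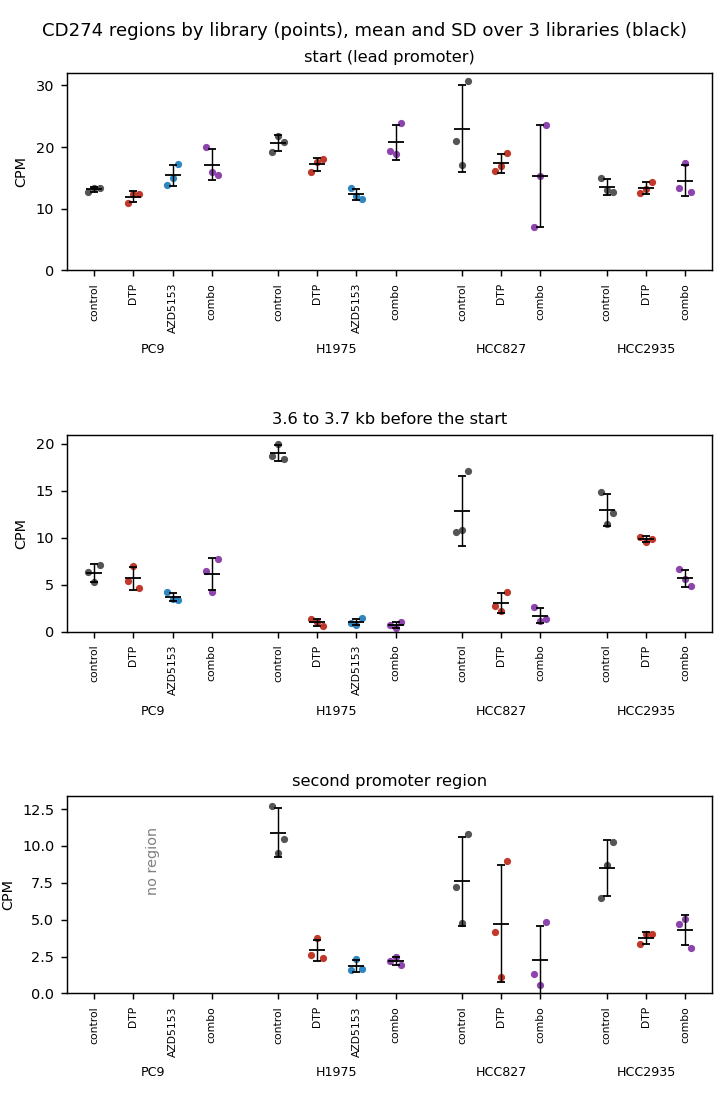
CPM (vertical axis) in every library (points) of the 14 groups, with mean and SD over 3 libraries in black, at the CD274 start, at the region 3.6 to 3.7 kb before it and at the second promoter region. The upstream region of H1975 drops from 18.3 to 19.95 CPM in control to at most 1.43 in the other groups, while the start lies between 11.6 and 24.0 in all H1975 libraries.

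IRF1, an inducible transcription factor of this response, showed no call at its lead promoter in DTP cells of PC9 or H1975. Downstream of its start, however, H1975 had 8 regions, 6.93 to 13.8 kb from it, annotated as intron or 3′ UTR. All 8 were called higher in DTP, against 25.2% of H1975 regions outside promoters, 6 were called higher again in combo, against 18.4%, and 1 with AZD5153 alone, against 20.4%. This stretch was singled out after its values were seen. The region 7.59 kb from the start (chr5:132480946-132481447) held 0.415, 0.481 and 0.723 CPM in control, 4.00, 4.26 and 4.59 in DTP, 12.4, 10.2 and 10.4 in combo and 1.5, 1.24 and 1.94 with AZD5153. The 4 groups did not overlap. The control libraries held 3 to 6 counts, so no fold is given for DTP, and the log2 change of combo against DTP was 1.35 ± 0.15 (adjusted p = 2.58e-14). PC9 had 7 regions in this stretch, with 2 called higher in DTP, against 17.5% of such regions, and 5 called higher in combo, against 14.4%, such as chr5:132478790-132479291, with 1.95, 1.24 and 1.61 in DTP and 5.49, 4.26 and 5.14 in combo (1.62 ± 0.32, 1.59e-05). HCC2935 and HCC827 had no annotated region there. About 19 kb on the other side of the start, a region fell in DTP cells of both H1975 (-1.76 ± 0.26) and HCC2935 (-1.85 ± 0.36).

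**Figure D5:**
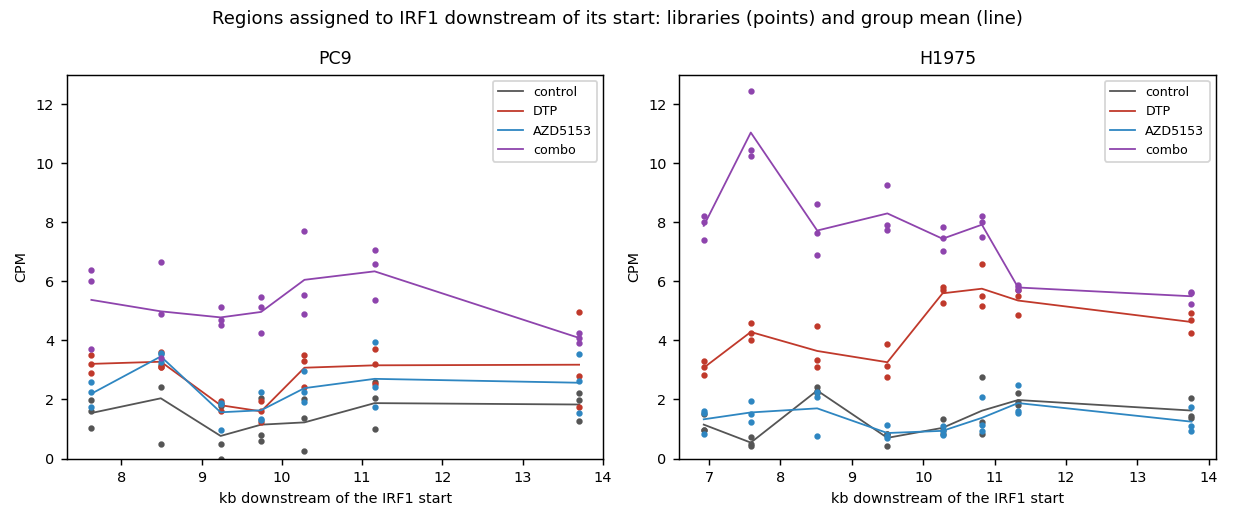
CPM (vertical axis) at regions assigned to IRF1 by distance downstream of its start in kb (horizontal axis), for each library (points) and the mean of each group (lines), in PC9 and H1975. In H1975 the combo line is highest at all 8 regions and peaks 7.59 kb from the start, where its libraries lie between 10.2 and 12.4 CPM and control between 0.415 and 0.723.

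Some other non-promoter regions changed more than the lead promoter of the gene they were assigned to, in both directions. An intron region assigned to SP100 in H1975 (chr2:230520760-230521261) had 38.9, 33.8 and 30.7 CPM in control and 0.801, 0.304 and 0.300 in DTP, or 3 to 7 counts and too few for a fold, and 3.23, 3.73 and 3.98 with AZD5153, while the SP100 lead promoter was not called in that line. A distal region of DDX60 (chr4:168200621-168201122) had 9.54, 10.2 and 8.80 in H1975 control against 0.114, 0.608 and 0.300 in DTP, or 1 to 6 counts and again too few, and 17.4, 19.0 and 14.7 against 5.53, 5.80 and 4.37 in HCC2935 (-1.70 ± 0.20). A DDX60 intron region in PC9 (chr4:168304954-168305455) had 9.15, 6.29 and 6.55 against 0.973, 0.621 and 0.803, the latter 3 to 5 counts. All these groups were fully separate, which for DTP against control their choice required. OAS1 had a region 5.14 kb before its start in H1975 that changed by -2.6 ± 0.23 in DTP, and in PC9 a promoter region of another OAS1 start (chr12:112916349-112916850) went from 8.14, 8.72 and 9.33 CPM to 1.17, 2.07 and 2.01 in DTP (-2.32 ± 0.27) and 0.576, 0.557 and 0.753 with AZD5153. The OAS1 lead promoter rose in DTP cells of both lines.

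At the MHC regulators, NLRC5 had an intron region that rose in DTP cells of PC9 (chr16:57014514-57015015), from 2.54, 1.42 and 2.78 CPM to 6.42, 6.62 and 6.83 (1.56 ± 0.27, adjusted p = 2.84e-07), and the group with AZD5153 alone held 10.4, 10.0 and 10.9 (2.21 ± 0.24 against control). In H1975 another NLRC5 region (chr16:57061174-57061675) rose with AZD5153 alone, from 4.43, 4.09 and 4.34 to 21.6, 19.8 and 20.4 (2.27 ± 0.14), and one at chr16:57029123-57029624 from 0.553, 0.120 and 0.241, or 1 to 4 counts, to 6.92, 9.18 and 9.28. The region matching the first rose in HCC2935 (1.37 ± 0.24) and in H1975 (1.70 ± 0.25). Its promoter changed by 0.57 in H1975 and 0.40 in HCC2935 and was not called in PC9. CIITA in H1975 held an intron region (chr16:10883015-10883516) with 13.6, 14.1 and 14.3 in control, 4.46, 5.07 and 5.19 in DTP, 0.692, 0.467 and 0.612 with AZD5153 and 7.97, 6.46 and 5.52 in combo. DTP and AZD5153 were thus both below control (-1.5 ± 0.14 for DTP, with 3 to 6 counts under AZD5153 and no fold). A promoter region of STAT2 816 bases into the gene (chr12:56358779-56359280), apart from its lead promoter, rose in PC9 from 1.53, 1.42 and 2.78 to 6.03, 7.04 and 5.62 (1.67 ± 0.29) and in H1975 from 2.49, 1.68 and 2.41 to 8.46, 9.32 and 9.89 (2.08 ± 0.19), with no overlap.

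Genes of the pathway outside the list (receptors and kinases, adaptors, feedback genes, interferons, other presentation genes) were read at their lead promoters. In DTP, 7 of 34 were called in PC9 (5 higher, 2 lower), against 26.1% of all promoters, 18 of 32 in H1975 (6 higher, 12 lower), against 49.9%, and 11 of 34 in HCC2935 (10 higher, 1 lower), against 32.8%, and with summed libraries 2, 8 and 6. In HCC827 0 of 25 were called. PSMB10, a subunit of the immunoproteasome, was called higher in 3 lines (1.26 ± 0.21 in PC9, 0.92 ± 0.13 in H1975, 0.93 ± 0.23 in HCC2935). The other antigen presentation genes of H1975 did not follow it, as 4 of 9 were called lower, ERAP1 (-0.59 ± 0.11), RFX5 (-0.20 ± 0.07), CALR (-0.19 ± 0.08) and CANX (-0.16 ± 0.07), and ZBP1 (-1.23 ± 0.10) was the lowest of the pathway genes there. IFNL1, a type III interferon gene, was called higher in PC9 (1.38 ± 0.33) and HCC2935 (1.09 ± 0.32), and CD74, the class II invariant chain, in H1975 (0.65 ± 0.11) and HCC2935 (3.15 ± 0.30). For AZD5153 alone in H1975, 12 of 32 were called higher and 11 lower, against 43.8% and 24.4% of all promoters, and 14 were called with summed libraries. Among the lower were ZBP1, a sensor of left-handed nucleic acid (-2.57 ± 0.13), and JAK2 (-1.07 ± 0.10). JAK2 lies in the same 10 Mb bin as CD274, whose regions shifted down together under AZD5153 alone. With bin medians removed, 14 pathway genes were called higher and 9 lower, and 2 receptors and kinases lower instead of 3. For combo against DTP 14 were higher and none lower, against 28.0% and 6.48% of all promoters, and 1 was called with summed libraries. Over the 12 libraries of a line, the lead promoters most like that of CD274 in log2 CPM were DDX58 (Pearson r = 0.932), OASL (0.895) and IFI6 (0.877) in H1975 and DDX58 (0.867), IFI35 (0.748) and IRF9 (0.691) in PC9. These points share lines, groups and scaling, and DDX58 and CD274 lie on the same chromosome arm, so the values are a description.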

How the data were processed

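Chromatin accessibility was measured by ATAC-seq per the titles and series design, in 42 libraries (14 groups of 3); the extraction protocol of the labels describes H3K27ac immunoprecipitation instead. The authors deposited raw counts per region for each line, with a second table giving annotated genes, and a peak list per library with q values as −log10. The submitters' processing notes name hg38, BWA 0.7.17, SAMtools 1.9, MACS2 2.2.6, featureCounts 2.0.0, deepTools 3.4 and ChIPseeker 1.29.1, with no order given.

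Each line was fitted with edgeR 4.0.16 (R 4.3.3) on all its groups: filterByExpr, TMM factors and the quasi-likelihood F test. The Benjamini-Hochberg adjustment covered all regions tested in the line (126506 in PC9, 191202 in H1975, 82309 in HCC827, 154179 in HCC2935), and an adjusted p under 0.05 was called. Standard errors were the log2 change divided by the root of F and can lie below counting error at few counts. No fold is given where every library of a group held at most 7 counts. The joint fit matched regions by a reciprocal overlap of 50%. The fits were tested on simulated data. Totals cover the regions of the tables only.

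Members, gene lists and tests were chosen with earlier results of these data known. Named were a set of signature genes, the 3 largest called rises and falls per line and contrast (libraries separate, mean of at least 20 counts in the higher group), and leads called in 3 lines. IRF1 downstream regions, the second promoter regions of CD274, OAS1 and STAT2, and pathway genes with values were singled out after their values were seen. Alternatives covered scaling, filters, DESeq2 1.42.0, regional medians, summed libraries and leaving out replicates. Replicate numbers were checked by the correlation of deviations from group means between same-numbered libraries. All were 0.165 to 0.848 in HCC827, so the blocked value is given there, and those of HCC2935 DTP and combo were 0.165 to 0.308. In HCC827 replicates 1 and 2 also correlated across numbers, as DTP 2 with combo 1 (0.567, against 0.515 with combo 2). Replicate 3 was negative with both, so the block there mainly sets replicate 3 apart.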

Additional observations from a re-analysis of the deposited data

Results flagged for a closer look

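The difference between the effect of AZD5153 in DTP cells and in control cells was itself called at named lead promoters, by an interaction term. The effect in DTP cells is combo against DTP, in which a stop of osimertinib cannot be told apart from AZD5153. In H1975 it was 2.96 ± 0.26 for OAS1 (log2 scale, ± SE, edgeR adjusted p = 6.05e-23), 2.22 ± 0.27 for RSAD2 (4.33e-13), 2.18 ± 0.26 for IFI44 (1.22e-13), 1.86 ± 0.26 for IFIT2 (2.05e-10), 0.70 ± 0.26 for IFIT3 (0.0226) and -1.20 ± 0.32 for BST2 (0.000824). In PC9 it was 1.45 ± 0.32 for IFI35 (0.00019), -1.37 ± 0.35 for OAS2 (0.00202), -1.12 ± 0.30 for MX1 (0.00362) and -0.68 ± 0.21 for SP110 (0.0155). The BST2 value was -0.14 with bin medians removed. With summed libraries the OAS2, MX1, SP110 and IFIT3 differences were no longer called (adjusted p = 0.0600, 0.116, 0.371 and 0.149).

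The DTP effect differed between lines at 2 lead promoters called in all 3 lines: MX1 by 1.45 ± 0.40 between HCC2935 and PC9 (adjusted p = 0.00504) and 1.23 ± 0.36 between HCC2935 and H1975 (0.00459), and TRIM22 by 1.84 ± 0.52 between HCC2935 and PC9 (0.00563). Both had few counts in HCC2935 control, so the size of these differences is uncertain.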

How the results depend on the processing

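Of 124 results for single regions, 68 stayed past the threshold in all alternatives run, and of 2001 recomputed values 1738 were past it, 261 were not and 2 turned sign: CD274 in H1975 with bin medians removed, at 0.41 for AZD5153 against control and -0.13 for the difference of AZD5153 effects. A filter at a mean of 50 counts, which tests fewer members, gave 8, 7, 5 and 2 calls in PC9 (in the order DTP, combo, AZD5153 and difference of AZD5153 effects) and 37, 28, 41 and 37 in H1975, and for DTP and combo 8 and 2 in HCC2935. Summed libraries gave 17, 8, 14 and 4 in PC9, 15 for combo in H1975, 2 for DTP in HCC827 and 5 for combo in HCC2935. DESeq2 gave 11 for combo, 16 for AZD5153 and 5 for the difference in PC9, 34 for combo in H1975, 1 for DTP in HCC827 and 5 for combo in HCC2935. No filter gave 11 for the PC9 difference, and HCC827 DTP gave 2 with the replicate block and 1 with annotated regions only. The block moved no other count of calls by over 1.5 times. Leaving out each replicate gave 16 to 24 for combo in PC9, 5 to 8 for combo in HCC2935 and 5 to 9 for HCC2935 against PC9. The promoter nearest to the start gave a level of 1.25 in PC9 AZD5153. With any overlap of peaks, lead promoters with a peak in all libraries numbered 20, 25, 24 and 25 in PC9 control, DTP, AZD5153 and combo, 28 and 23 in H1975 control and AZD5153, 10, 15 and 9 in HCC827 and 19, 26 and 26 in HCC2935. The cause of these changes was not tested. HCC827 had the lowest library totals and the widest spread between replicates (44.9%, as a biological coefficient of variation).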
